A study of Mus musculus with 10 samples.

Results

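The 33 genes described here encode the enzymes of glycolysis, the enzymes and scaffold proteins of glycogen storage, and the glucose transporters of skeletal muscle. They were taken by symbol from a list of glycolysis, glycogen and glucose transport genes, and all 33 were found among the 43629 genes counted in each library. The study examined what IMP2, the mRNA-binding protein encoded by Igf2bp2, does in mouse skeletal muscle. Wild-type (WT) total RNA was sequenced in 3 libraries and IMP2-null (KO) total RNA in 3, and RNA recovered with a home-made antibody to IMP2 was sequenced in 2 libraries from WT and 2 from KO muscle. All mice were male C57BL/6 animals of 6 weeks that had been fed an HFD (high-fat diet) for 2 weeks, so no library comes from mice on another diet. The series description calls the knockout muscle-specific, whereas the sample labels call the genotype IMP2 null. The driver of the deletion, and whether libraries came from separate animals, are not given in the sources used here. The p-values therefore measure only how far these libraries vary, and some of that variation may be technical.

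Glycolysis splits glucose into pyruvate in the cytosol. Hexokinase traps the sugar, phosphofructokinase commits it to the pathway, and the lower enzymes, from glyceraldehyde phosphate dehydrogenase to pyruvate kinase, return ATP. Skeletal muscle stores glucose as glycogen, which fast fibres break down with glycogen phosphorylase to feed glycolysis during contraction. Insulin and contraction raise glucose uptake by moving the transporter GLUT4 (Slc2a4) to the cell surface. IMP2 belongs to a family of RNA-binding proteins that bind mRNAs and affect their translation and stability.

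Gene counts ranged from 9691580 to 14809788 in the total RNA libraries and from 917462 to 4037480 in the immunoprecipitates (IP). The 33 genes took 4.40% to 6.38% of the gene counts of a library. All 10 defining skeletal muscle markers were counted in each library. Counts of Igf2bp2 in total RNA were 35, 37 and 48 for the WT libraries, and the KO libraries, which held fewer gene counts, gave 21, 19 and 21. In CPM, the TMM-scaled counts of a library relative to its size, WT had 2.51, 2.86 and 3.35. KO had 2.52, 1.88 and 2.47 CPM, so KO library 1 lay above WT library 1. The difference did not pass the test (log2 -0.36 ± 0.28, edgeR, Benjamini-Hochberg adjusted p = 0.897). The IP libraries labelled WT had 28 and 4 counts of Igf2bp2 and those labelled KO had 9 and 25, a log2 difference of 0.02 ± 0.78 (WT minus KO, edgeR adjusted p = 0.995). The level of Igf2bp2 thus does not bear out the genotype labels of the IP libraries, and in total RNA its WT and KO levels overlapped. Since the removed part of the gene is not given in the sources used here, WT and KO are used below as the labels give them. Of the total RNA libraries, 3 stood apart. WT library 3 had the lowest sum of the 13 fast-fibre markers (118210 CPM, where the 5 others reached 195796 to 288206 CPM) and the highest sum of the 6 nuclear transcripts (6285 CPM against 1614 to 2802). KO library 1 had 2413 CPM of the 9 pancreatic islet markers, while the 5 others had 1.15 to 2.47 CPM. In the IP libraries these markers summed to 42.9 and 340.5 CPM in WT and 379.5 and 142 CPM in KO. WT library 2 had the highest sums of adipocyte markers (1534 CPM, where the 5 others had 735 to 1064 CPM) and brown adipocyte markers (1731 CPM, where the 5 others had 749 to 1445 CPM). Of the 10 adipocyte markers, 0 had a positive difference in KO against WT total RNA, with a median of -0.72. The part of these features in the results below was not tested, and the values without these libraries are given where they matter.

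Levels of different genes were compared in CPM per kilobase of the longest coding transcript, as mean ± SD of the 3 WT libraries. In WT total RNA the order began with Aldoa, the aldolase of muscle, at 11103 ± 4764. It was followed by Eno3, the muscle enolase, at 5364 ± 1340.2, and by Pygm, the muscle glycogen phosphorylase, at 2762 ± 872. Pgam2, the muscle phosphoglycerate mutase, stood at 2523 ± 699.7 and Pfkm, the muscle phosphofructokinase, at 1968 ± 169.9. Aldoa, Eno3 and Pygm together took 46.5% to 65.5% of the CPM of the 33 genes in a library. Of the 32 pairs of neighbours in this order, 25 had ranges that overlapped between the 3 WT libraries, so most steps of the order lie within the spread. Reads not uniquely placed are given to no gene, which can lower the level of genes that share sequence with others. Of the 50-base stretches, other genes shared 82.5% for Gapdh, 72.2% for Eno1, 68.0% for Pgk1, 41.5% for Pgam1 and 34.4% for Pkm. The order, and the share of Aldoa, Eno3 and Pygm, therefore describe counted reads and not true abundance. The lower end held Hk1, the hexokinase of most tissues, at 3.12 ± 0.837, Pgm2 at 2.05 ± 0.746, the basal transporter Slc2a1 (GLUT1) at 1.92 ± 0.220 and the non-muscle mutase Pgam1 at 0.272 ± 0.0793.

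**Figure D1:**
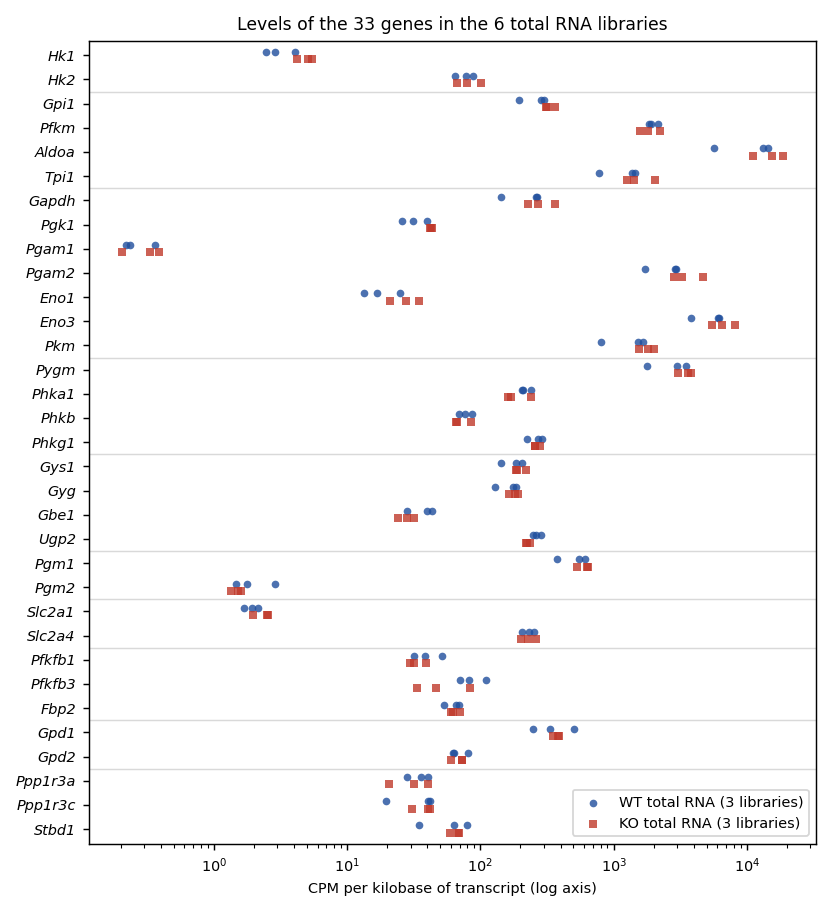
Level of each gene in CPM per kilobase of transcript (log axis) in the 3 WT and 3 KO total RNA libraries, 1 point per library, with genes ordered by role and grey lines between roles. Pgam1 lies lowest and Aldoa highest, while the WT and KO points of most genes lie together.

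For the genes that the results turn on, the positions on GRCm38 are chr10:62268855-62379908 for Hk1, chr6:125161715-125166467 for Gapdh, chrX:106187100-106203699 for Pgk1, chr16:70313949-70569716 for Gbe1, chr11:21321138-21371201 for Ugp2, chr4:119108711-119137983 for Slc2a1 and chr11:69942539-69948188 for Slc2a4. The labels do not say whether strand was used in counting. Over whole gene spans, introns included, 18 of the 33 genes overlap a gene annotated on the opposite strand. They are Hk1, Hk2, Gpi1, Pfkm, Aldoa, Tpi1, Gapdh, Gys1, Ugp2, Pgm1, Pgm2, Phkb, Phkg1, Slc2a1, Pfkfb1, Pfkfb3, Gpd1 and Gpd2. If strand was not used, reads from stretches where exons of both genes overlap cannot be told apart. How many counted reads this concerns was not tested. Of 4 pairs of isoenzymes or transporters, the muscle form made up most in WT total RNA. In a further pair that was compared, Pfkfb1 made up only 31.6% ± 6.36 of Pfkfb1 plus Pfkfb3 per kilobase. Per kilobase, Eno3 made up 99.7% ± 0.0712 of Eno3 plus Eno1 in WT total RNA, and Pgam2 made up 99.99% ± 0.00329 of Pgam2 plus Pgam1. Slc2a4 made up 99.2% ± 0.0101 of the 2 transporters, and Hk2, the insulin-regulated hexokinase, 96.1% ± 0.920 of Hk2 plus Hk1. Counts of Pgam1 were 9, 5 and 6 for WT and 3, 7 and 5 for KO among the total RNA libraries. They were 0 in 3 of the 4 IP libraries and 2 in the other, KO library 2, so it was too low to be tested in any comparison. The 250 bases before the RefSeq start of both genes of the enolase and mutase pairs are shown, since these pairs differ most in level per kilobase. Capitals mark the E-box letters CANNTG, which myogenic factors of the MyoD family bind in one form, and ACGTG, the core of the hypoxia response element, searched on both strands (GRCm38.p6, 5′ to 3′ on the strand of the gene). Eno1 has 3 promoters in the table, and the one nearest to the start of the annotated gene is shown.
Eno3, chr11:70656926-70657175, plus strand: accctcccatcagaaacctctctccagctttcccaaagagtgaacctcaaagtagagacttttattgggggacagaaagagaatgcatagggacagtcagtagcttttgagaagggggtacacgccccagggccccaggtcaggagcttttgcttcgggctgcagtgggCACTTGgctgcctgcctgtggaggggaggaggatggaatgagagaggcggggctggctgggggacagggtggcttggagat
Eno1, chr4:150236458-150236707, plus strand: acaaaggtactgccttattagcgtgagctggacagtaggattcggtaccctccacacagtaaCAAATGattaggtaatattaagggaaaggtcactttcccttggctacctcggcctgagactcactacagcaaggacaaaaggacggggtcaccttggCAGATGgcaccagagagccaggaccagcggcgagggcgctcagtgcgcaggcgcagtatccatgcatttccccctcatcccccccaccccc
Pgam2, chr11:5803797-5804046, minus strand: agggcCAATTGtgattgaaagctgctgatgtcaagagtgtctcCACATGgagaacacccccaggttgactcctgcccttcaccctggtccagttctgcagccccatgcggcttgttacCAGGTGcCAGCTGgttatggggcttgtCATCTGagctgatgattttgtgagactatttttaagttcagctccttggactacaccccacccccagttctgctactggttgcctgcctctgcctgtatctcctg
Pgam1, chr19:41911621-41911870, plus strand: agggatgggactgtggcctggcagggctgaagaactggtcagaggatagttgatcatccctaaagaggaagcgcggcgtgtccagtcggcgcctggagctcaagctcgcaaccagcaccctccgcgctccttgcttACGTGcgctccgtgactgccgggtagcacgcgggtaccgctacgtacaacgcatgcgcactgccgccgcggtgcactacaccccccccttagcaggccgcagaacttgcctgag
The Pgam2 window held 5 E-box matches and the Pgam1 window none, with 1 ACGTG match in Pgam1. Eno3 had 1 E-box match and Eno1 had 2, so the count of matches did not follow the level in the enolase pair. RefSeq promoters matched 31 of the 33 genes (46 promoters). ACGTG, on either strand, was found in 39.1% of these 46 windows against 16.6% of the windows of all 32851 promoters. The windows with it belong to 15 of the 31 genes, which include Aldoa, Hk2, Pgk1, Pkm, Pfkm and Slc2a1. E-box letters were found in 76.1% against 66.2%, and TATAAA in 6.52% against 12.4%. A match describes letters in this window and not binding.

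In total RNA, no gene passed in KO against WT muscle, among the 32 of the 33 genes that could be tested or among all 13169 genes tested (0.0% called, edgeR quasi-likelihood test, Benjamini-Hochberg adjustment). At an unadjusted p under 0.05 there were 569 genes in all (4.32%) and 2 of the 32 (6.25%), Hk1 and Eno1. Of the 32 genes, 21 had a positive difference (65.6%, against 48.0% of all genes), with a median log2 difference of 0.13 against -0.01 for all genes. With library size as the only scaling, all genes shifted by a median of -0.22, and the 32 genes then had 13 positive values and a median of -0.07, so the directions below are relative to the bulk of genes. DESeq2 called 5 genes, with 0 of the 32 among them. Fewer cells of a type and less RNA per cell cannot be told apart in these whole-muscle samples.

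The hexokinases come first in the pathway. Hk1 stood at 12.2, 17.4 and 10.5 CPM in the WT libraries and at 17.9, 21.9 and 23.1 CPM in the KO libraries. Each KO library lay above all WT libraries. The log2 difference was 0.65 ± 0.22, which did not pass (edgeR adjusted p = 0.896). Hk2 did not separate: it stood at 489, 432 and 353 CPM in WT and 553, 439 and 369.9 CPM in KO, a log2 difference of 0.09 ± 0.20. Among the 4 upper glycolytic enzymes, Gpi1 (glucose phosphate isomerase) also had groups that did not overlap, at 816, 860.1 and 564 CPM in WT and 913, 891 and 1045 CPM in KO (0.34 ± 0.20). Aldoa stood at 22460.2, 20371 and 8764 CPM in WT and 23752, 17195 and 29101 CPM in KO, so that WT library 3 lay far below the other 5 libraries and the rest overlapped. Tpi1 (triose phosphate isomerase) differed by 0.38 ± 0.28 and Pfkm by -0.08 ± 0.21.

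In lower glycolysis, all 6 tested genes had positive differences between 0.32 and 0.60, with a median of 0.41 and none passing. Pgk1, the X-linked phosphoglycerate kinase, stood at 56.9, 72.9 and 47.0 CPM in WT and 76.4, 77.4 and 79.7 CPM in KO. The KO values lay close together and above all WT values (log2 0.40 ± 0.18). Eno1, the enolase of most tissues, stood at 33.9, 50.4 and 27.0 CPM in WT and 42.8, 55.7 and 70.6 CPM in KO (0.60 ± 0.26), with WT library 2 above KO library 1. Pgam2 differed by 0.51 ± 0.28, Pkm (muscle pyruvate kinase) by 0.42 ± 0.28, Gapdh by 0.36 ± 0.27 and Eno3 by 0.32 ± 0.27. WT library 3 was the lowest of the 6 total RNA libraries for 6 of the 7 lower glycolytic genes and for 20 of the 33 genes, while KO library 3 was the highest for 11. The summed level of the 33 genes was 38677 CPM in WT library 3 and 56880 to 79755 CPM in the other 5. The fast-fibre markers moved with these genes: 12 of 13 had positive differences, with a median of 0.51, and the sum of their levels was 118210 to 202211 CPM in WT and 221531 to 288206 CPM in KO total RNA. Their part in the differences was not tested. Without KO library 1, the library with islet transcripts, the median log2 difference of the 32 genes was 0.07, with 18 positive. Without WT library 3, the median log2 difference of the 32 genes was 0.00, with 16 positive, and without both libraries numbered 3 it was -0.04. It was 0.19 without WT library 1, 0.29 without WT library 2 and 0.18 without KO library 2, with 21, 21 and 23 positive. Without KO library 3 alone it was 0.10, with 24 positive.

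Glycogen genes went in both directions. Pygm had a difference of 0.33 ± 0.27, with 9995, 8670.3 and 5148 CPM in WT and 10974, 8813 and 10314 CPM in KO. The subunits of phosphorylase kinase, which switches phosphorylase on, lay near 0: Phka1 at -0.20 ± 0.20, Phkb at -0.10 ± 0.17 and Phkg1 at 0.02 ± 0.17. Gbe1, the branching enzyme, stood at 93.4, 132 and 142 CPM in WT and 105, 92.8 and 79.9 CPM in KO. KO libraries 2 and 3 were the lowest of the 6, and WT library 1 lay inside the KO range (-0.41 ± 0.19). Ugp2, which makes the UDP-glucose used for synthesis, had KO values that all lay below its WT values, at 635, 595 and 603 CPM against 764, 706 and 663 CPM (-0.22 ± 0.15). The synthase Gys1 differed by 0.15 ± 0.19 and the primer glycogenin, Gyg, by 0.12 ± 0.18. Groups did not overlap for 4 of the 32 genes (12.5%, against 9.61% of all genes tested). Hk1, Gpi1 and Pgk1 were the 3 with higher KO values (9.38%, against 4.76%), and Ugp2 was the 1 with lower KO values (3.12%, against 4.85%). The phosphoglucomutase Pgm1, which interconverts glucose 1-phosphate and glucose 6-phosphate, differed by 0.24 ± 0.22, and Pgm2 by -0.47 ± 0.30.

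No transporter and no control enzyme passed. Slc2a4 stood at 638, 586 and 519 CPM in WT and 662, 507 and 576 CPM in KO, a log2 difference of -0.00 ± 0.17. Slc2a1 differed by 0.28 ± 0.20. Pfkfb3, which makes the activator fructose 2,6-bisphosphate, had the most negative difference of the 32, at -0.70 ± 0.31. It stood at 532, 339 and 397 CPM in WT and 400.2, 223 and 162 CPM in KO, so that KO libraries 2 and 3 were below all WT libraries and KO library 1 was not. Its relative Pfkfb1 differed by -0.27 ± 0.20. Per kilobase, Pfkfb1 made up 31.6% ± 6.36 (SD, n = 3) of the 2 genes in WT and 39.8% ± 8.32 (SD, n = 3) in KO total RNA, and 44.7% ± 4.51 (SD, n = 2) in the WT and 59.7% ± 11.5 (SD, n = 2) in the KO IP. Fbp2, the muscle fructose bisphosphatase, differed by 0.02 ± 0.15. The glycerol phosphate dehydrogenases Gpd1 and Gpd2, which pass reducing equivalents to mitochondria, differed by 0.04 ± 0.25 and -0.01 ± 0.18. Of the proteins that bind glycogen, Ppp1r3a, Ppp1r3c and Stbd1, the differences were -0.18 ± 0.24, 0.15 ± 0.27 and 0.14 ± 0.26.

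**Figure D2:**
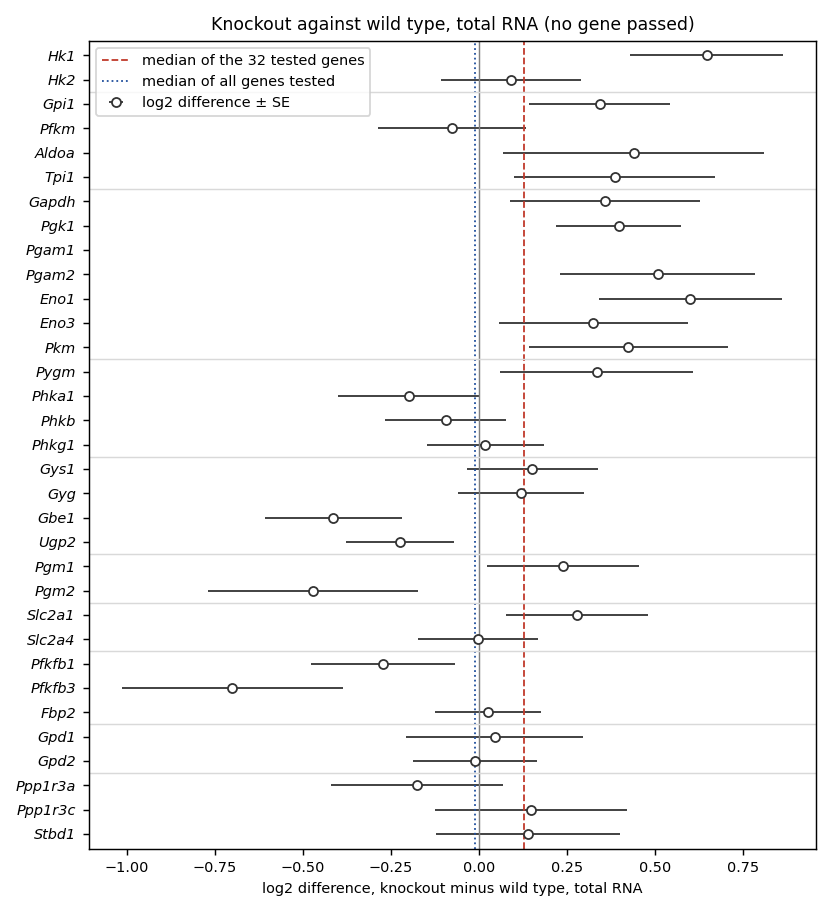
Log2 difference between KO and WT total RNA for each tested gene, with bars of 1 SE and open symbols for genes that did not pass; the dashed line is the median of the 32 genes (0.13) and the dotted line that of all genes (-0.01). The 6 lower glycolytic genes all lie to the right of 0, and Pfkfb3 lies farthest to the left.

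The differences in total RNA varied with the base composition of the transcripts. Across the 32 genes, the log2 difference between KO and WT rose with the GC content of the longest coding transcript (Pearson r = 0.65, Spearman rho = 0.71, across genes, which share the same 6 libraries). Over all 12290 coding genes tested the values were 0.17 and 0.23. The 4 members under 45% GC (Ppp1r3a, Ugp2, Gbe1 and Phkb) had a median of -0.20, and the 9 members at 55% or more had a median of 0.42. All coding genes in the same GC ranges had medians of -0.09 and 0.06. GC content and transcript length also go together (r = -0.46 between GC and log length among the 32), and the correlation with log length was -0.43. For the IP against total RNA, the correlation with GC content across the 32 genes was 0.35 (rho = 0.46) in WT and 0.10 (rho = 0.14) in KO, against 0.16 (rho = 0.20) and 0.08 (rho = 0.11) over the 13116 coding genes tested. The correlation with log length in the IP against total RNA was -0.04 in WT and 0.10 in KO across the 32 genes. Over the 13116 coding genes it was -0.23 and -0.19. The parts of base composition and length in the differences were not tested.

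**Figure D3:**
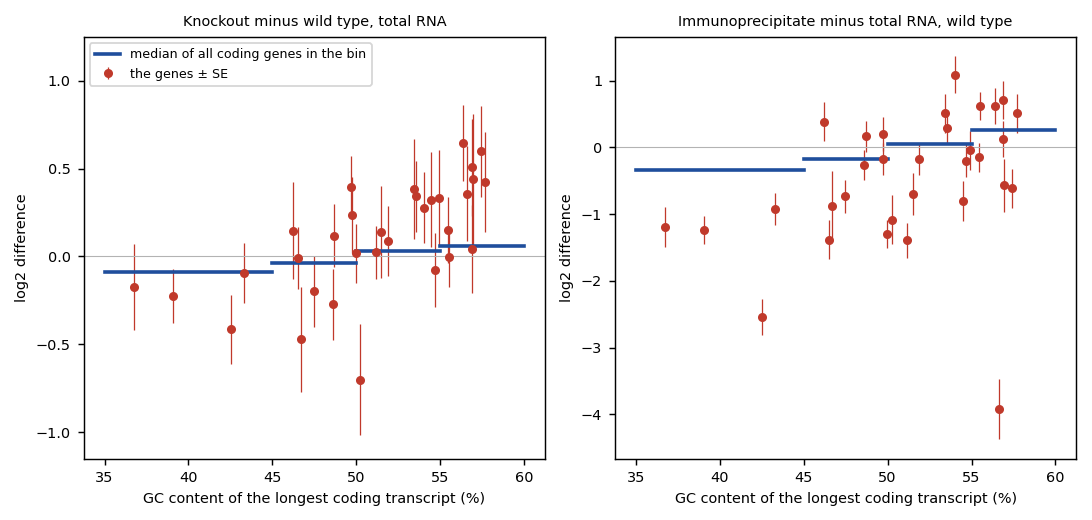
Log2 difference of each gene (point, with bars of 1 SE) against the GC content of its longest coding transcript, for KO against WT total RNA (left) and for WT immunoprecipitate against WT total RNA (right). Blue lines give the median of all coding genes tested in each GC range, with the outer ranges drawn only from 35% to 60%; the points rise more steeply than the lines on the left.

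The IP was compared between genotypes, with the libraries labelled KO as the background of the antibody, although Igf2bp2 itself did not separate these libraries. No gene passed among the 31 genes tested or among all 10730 genes (0.0% called), while 1128 genes (10.5%) and 2 of the 31 (6.45%), Pgk1 and Pfkfb1, had an unadjusted p under 0.05. DESeq2 called 57 genes, with 0 of the 31 among them. The WT IP values of Pgk1 were 53.8 and 81.4 CPM, and its KO values were 50.9 and 30.9 CPM. The WT values were both higher, by 0.79 ± 0.31 on the log2 scale (edgeR adjusted p = 0.382). Pfkfb1 had WT values of 58.9 and 67.0 CPM and KO values of 93.2 and 93.1 CPM, so that both KO values were higher (log2 of WT against KO -0.57 ± 0.24, edgeR adjusted p = 0.415). Of the 31 genes, 23 had a positive difference (74.2%, against 49.1% of all genes). Their median was 0.16, against -0.01 for all genes (0.02, with 17 positive, when scaled by library size alone), and it ranged from -0.06 to 0.35 when each IP library was left out in turn, with -0.06 without KO IP library 2. Groups did not overlap for 8 of the 31 (25.8%, against 41.1% of all genes tested). Of these, 5 had higher WT values (16.1%, against 20.3%), Aldoa, Pgk1, Pgam2, Gys1 and Slc2a1, and 3 had lower WT values (9.68%, against 20.8%), Tpi1, Phkg1 and Pfkfb1. The KO IP libraries held 917462 and 4037480 gene counts, and their fibroblast markers summed to 10362 to 11650 CPM against 4894 to 6401 CPM in the WT IP, with nuclear transcripts at 4453 to 4462 CPM against 1742 to 1849 CPM. Islet transcripts were in all 4 IP libraries, as given above. The part of these features in the results was not tested.

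Each IP was also set against the total RNA of its own genotype, which shows which transcripts were over- or under-represented in the recovered RNA. In WT muscle, 2 of the 32 tested genes were higher in the IP (6.25%, against 17.6% of all 14399 genes tested) and 11 were lower (34.4%, against 19.4%). In KO muscle, which by its label lacks the protein, 0 were higher (against 17.7%) and 14 were lower (43.8%, against 18.8%). An unadjusted p under 0.05 was found for 16 of the 32 in WT (against 46.6% of all genes) and 17 in KO (53.1%, against 46.3%). Values of IP and total RNA libraries did not overlap for 20 of the 32 genes in each genotype (62.5%, against 59.9% of all genes in WT and 61.3% in KO). Of these, 7 had higher IP values in WT (21.9%, against 27.4%) and 3 in KO (9.38%, against 29.9%), while 13 had lower IP values in WT (40.6%, against 32.5%) and 17 in KO (53.1%, against 31.3%). Positive differences were found for 11 genes in WT (34.4%, against 48.3%) and 7 in KO (21.9%, against 51.4%). Without scaling factors other than library size, the median of all genes in the KO comparison moved by 0.43. The share of higher calls among all genes then rose from 48.6% to 74.8%, and the counts for the 32 became 4 higher and 10 lower. The fast-fibre markers were also lower in the IP, 6 of 13 in WT and 9 of 13 in KO, with sums of 76338 to 125112 CPM over the 4 IP libraries, and their part in these results was not tested. Of the genes lower in the IP, 10 were shared, which is 90.9% of the WT list and 71.4% of the KO list, against 68.9% and 71.3% for all genes tested.

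Gapdh was the most depleted of them in both genotypes, at -3.92 ± 0.46 on the log2 scale in WT (edgeR adjusted p = 3.4e-05) and -4.06 ± 0.47 in KO (edgeR adjusted p = 3.8e-05). In WT its values were 370.3, 379 and 203 CPM in total RNA and 17.7 and 24.2 CPM in the IP. In KO they were 384, 321 and 518 CPM in total RNA and 42.3 and 13.3 CPM in the IP. All IP values lay far below all total RNA values. Reads that were not uniquely placed are given to no gene in the deposited counts, and all 950 50-base coding stretches of Gapdh (100%) were also found in transcripts of other annotated genes. The stretches with the most and the fewest such genes are shown.
Gapdh, coding bases 415 to 464, found in 84 other genes: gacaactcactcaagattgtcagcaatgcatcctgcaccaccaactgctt
Gapdh, coding bases 14 to 63, found in 10 other genes: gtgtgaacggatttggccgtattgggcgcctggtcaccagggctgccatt
Reads were summed over 197 counted genes that share a 50-base stretch with the longest coding transcript of Gapdh. Iffo1, Peli2, Vmn2r60 and 3000002C10Rik also share a stretch and were left out of this sum. For the 197 genes, the WT total RNA libraries held 4804, 4413 and 2684 reads, next to 5172, 4908 and 2908 for Gapdh itself. The KO total RNA libraries held 3340, 3352 and 4756, next to 3197, 3250 and 4407. In the IP libraries these genes held 308 and 349 reads from WT muscle and 221 and 372 from KO muscle. Gapdh had 42 and 62 there from WT and 44 and 64 from KO. Gapdh and these genes were both lower in CPM in the IP than in total RNA, and in the IP Gapdh had the smaller count of the 2. Entries for alignments that were not unique made up 36.4% to 43.3% of all entries in the IP libraries and 26.1% to 36.9% in total RNA. Whether each entry is a separate read is not given in the sources used here. The part of read placement in the Gapdh difference was not tested.

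**Figure D4:**
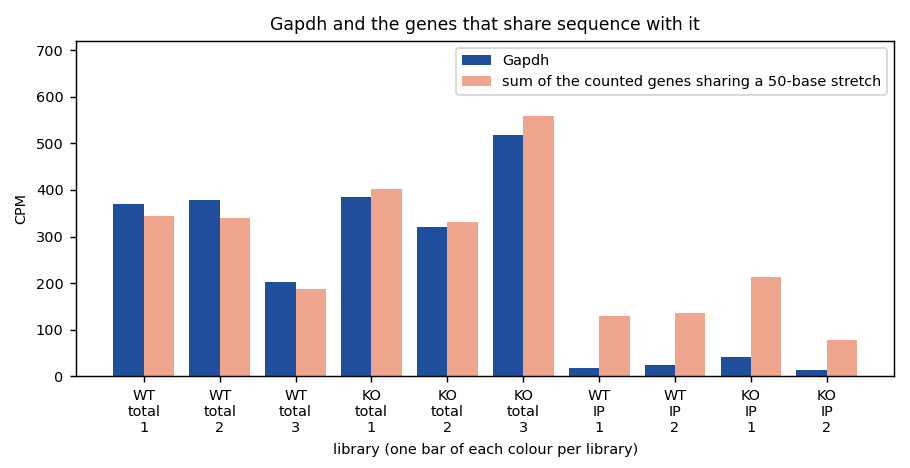
CPM of Gapdh (dark bars) and of 197 counted genes that share a 50-base stretch with it (light bars) in each of the 10 libraries. Iffo1, Peli2, Vmn2r60 and 3000002C10Rik share a stretch and were left out. The bars of a pair are of similar height in total RNA. In the IP libraries Gapdh stands at 13.3 to 42.3 CPM and the other genes at 77.2 to 212 CPM.

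Among the other lower glycolytic genes, Eno3 was lower in the IP in both genotypes (-0.80 ± 0.30 in WT, edgeR adjusted p = 0.046, and -1.27 ± 0.30 in KO, adjusted p = 0.0048). The WT call was lost in 7 of 15 alternative fits. Eno1 (-1.34 ± 0.30) and Pgk1 (-0.99 ± 0.27) were lower in KO, with values of -0.61 ± 0.29 and 0.20 ± 0.25 in WT that did not pass. Eno1 and Pgk1 also share sequence with other annotated genes, for 72.2% and 68.0% of their 50-base stretches, whereas Eno3 shares none. The 2 counted genes that share sequence with Pgk1 had only 0 to 3 counts in a library. Reads not uniquely placed are given to no gene, so these counts cannot show how many Pgk1 reads were left out. Aldoa was lower in the KO IP (-1.43 ± 0.41) and differed by -0.57 ± 0.40 in the WT IP without passing. Its IP values were 11265 and 11918 CPM in WT and 11049 and 6342 CPM in KO, where KO library 2 was the low one. Pgam2, Pkm, Tpi1, Gpi1, Pfkm and both hexokinases passed in neither genotype.

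Several glycogen genes were lower in the IP of both genotypes. Gbe1 had the second largest depletion in both genotypes, -2.53 ± 0.27 in WT (edgeR adjusted p = 1.9e-05) and -2.30 ± 0.28 in KO (edgeR adjusted p = 4.9e-05). Its IP values were 17.7 and 24.5 CPM in WT and 23.1 and 16.4 CPM in KO, all below the lowest total RNA value of 79.9 CPM, and no 50-base stretch of it was found in another gene. Ugp2 was lower, at -1.24 ± 0.21 in WT and -1.08 ± 0.21 in KO. The 3 subunits of phosphorylase kinase among the 33 genes were lower in both genotypes, Phkg1 at -1.30 ± 0.21 and -0.92 ± 0.21, Phkb at -0.92 ± 0.23 and -1.01 ± 0.24, and Phka1 at -0.73 ± 0.25 and -0.82 ± 0.25. Their substrate Pygm, which they activate, had IP values of 8147 and 7246 CPM in WT and 7856 and 7042 CPM in KO and did not pass (-0.04 ± 0.29 and -0.43 ± 0.29). Gys1 (-0.15 ± 0.22 and -0.57 ± 0.22) and Gyg (0.16 ± 0.23 and -0.20 ± 0.23) did not pass. Ppp1r3a, which targets protein phosphatase to glycogen, was lower in both (-1.19 ± 0.30 and -0.94 ± 0.30), and Stbd1, which tethers glycogen to membranes, was lower in KO (-1.38 ± 0.34). The 4 genes under 45% GC, Ppp1r3a, Ugp2, Gbe1 and Phkb, were all lower in both IPs. Among all coding genes in that range, 26.6% (WT) and 22.5% (KO) were lower. Of the 5 members with transcripts of 5000 bases or more, 4 were lower in each IP (80%), Phka1, Phkb, Gpd2 and Ppp1r3a. Among all coding genes of that length, 32.2% (WT) and 29.8% (KO) were lower. The parts of base composition and length were not tested.

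Of the remaining genes lower in the IP, Fbp2 stood at -1.39 ± 0.27 in WT and -1.81 ± 0.29 in KO, and the mitochondrial enzyme Gpd2 at -1.38 ± 0.29 and -1.61 ± 0.29. Its cytosolic partner Gpd1 did not pass (0.13 ± 0.27 and -0.14 ± 0.27). Pfkfb3 was lower in the WT IP (-1.08 ± 0.37) and did not pass in KO (-0.66 ± 0.37). Without KO IP library 2, the deepest of the IP libraries, 5 of the 14 genes were still lower in KO (Fbp2, Gapdh, Gbe1, Gpd2 and Ugp2), and 2148 of all genes passed in place of 5251. Without WT IP library 1, 6 genes were lower in WT in place of 11, the same 5 and Phkg1.

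The 2 genes higher in the WT IP were both glucose transporters. Slc2a1 had WT IP values of 13.0 and 13.6 CPM (31 and 35 reads) over 6.95, 6.33 and 5.51 CPM in WT total RNA, a log2 difference of 1.09 ± 0.28 (edgeR adjusted p = 0.0077). Both WT IP values lay above all other 8 libraries, which reached 8.65 and 6.43 CPM in the KO IP (9 and 31 reads) and 8.29, 8.11 and 6.46 CPM in KO total RNA. Slc2a4 stood at 863 and 926 CPM in the WT IP, above the 638, 586 and 519 CPM of total RNA (0.62 ± 0.21, edgeR adjusted p = 0.029). In KO the IP values of Slc2a4 were 872 and 707 CPM, which also lay above the KO total RNA values (0.44 ± 0.21, edgeR adjusted p = 0.11). The Slc2a1 call was lost without WT IP library 2 and with the libraries blocked by number, at an adjusted p of up to 0.057. The Slc2a4 call was lost in 5 of 15 alternative fits, among them those without WT IP library 1 and without WT IP library 2.

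**Figure D5:**
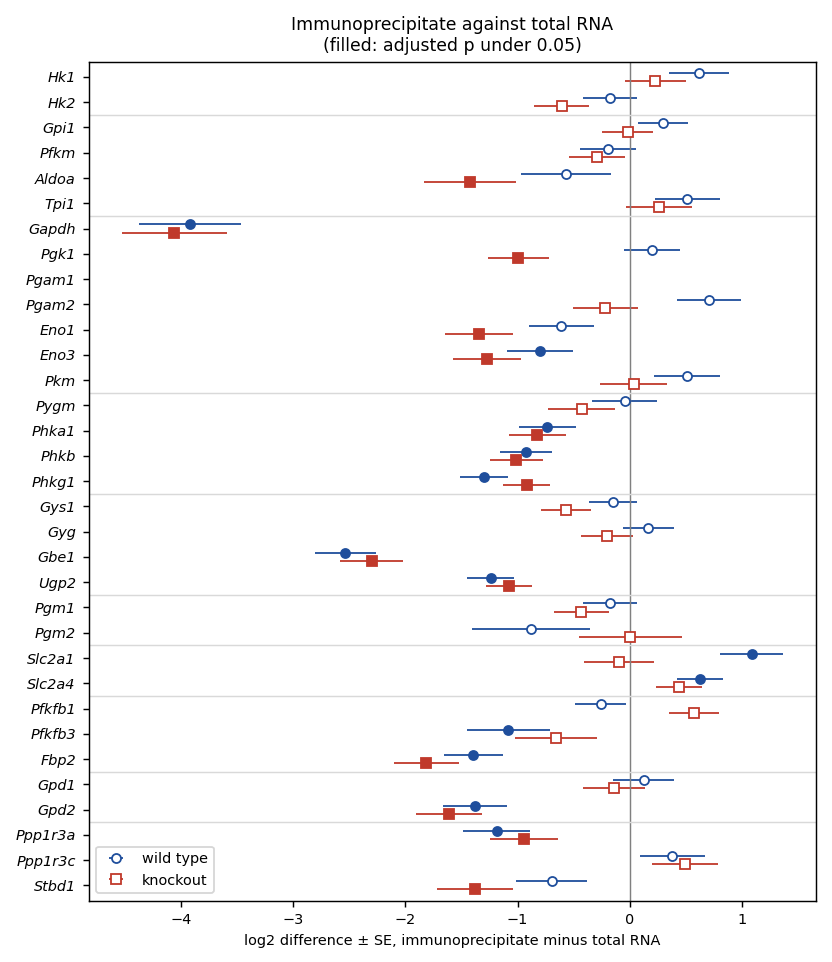
Log2 difference between the immunoprecipitate and total RNA in WT (circles) and KO muscle (squares) with bars of 1 SE; filled symbols passed the edgeR test at an adjusted p under 0.05. Gapdh and Gbe1 lie farthest to the left in both genotypes, and the filled symbols to the right of 0 are those of Slc2a1 and Slc2a4 in WT.

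Whether the difference between IP and total RNA itself depended on genotype was tested by the interaction. By edgeR, 0 of the 32 genes passed, and 1 gene of 14399 did (0.00694%), Prps1l3, which is not among the 33 and is named here after its value was seen. At an unadjusted p under 0.05 there were 4 of the 32 (12.5%) and 11.8% of all genes, and DESeq2 called 17 genes, with 0 of the 32 among them. The 4 genes were Pgk1 (1.19 ± 0.37, edgeR adjusted p = 0.34), Slc2a1 (1.19 ± 0.42), Pfkfb1 (-0.83 ± 0.32) and Pgam2 (0.92 ± 0.41). For Pgk1 the IP value relative to total RNA was 0.20 ± 0.25 in WT and -0.99 ± 0.27 in KO, and for Slc2a1 it was 1.09 ± 0.28 and -0.10 ± 0.32. The difference for Gapdh was 0.14 ± 0.59 and that for Gbe1 -0.23 ± 0.37, both within 1 SE of 0. Of the 32 genes, 24 had a positive value (75.0%, against 48.7% of all genes), with a median of 0.26 (-0.08, with 14 positive, when scaled by library size alone, with a shift of -0.37 in the median over all genes). It ranged from 0.15 (without WT total RNA library 3) to 0.42 (without WT total RNA library 2) when each library was left out. The other libraries whose omission moved it by over 1.5 times were WT IP library 2 (0.17), KO IP library 2 (0.17) and KO IP library 1 (0.39). The 13 fast-fibre markers had a median of 0.91 in the same test, with 12 positive and none passing.

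Other genes of the pathway, in 7 lists, were compared in the same fits. In total RNA, 0 of them passed. Lactate and pyruvate handling had 6 of 17 positive, and Ldhb, the lactate dehydrogenase subunit of heart and slow muscle, had the smallest p of that list (-0.98 ± 0.24, edgeR adjusted p = 0.896). Ldhb stood at 62.0 ± 3.63 (SD, 58.1 to 65.2) CPM in WT and 31.5 ± 10.9 (SD, 20.2 to 41.9) CPM in KO total RNA, and the ranges did not overlap. Tbc1d4, which holds GLUT4 vesicles back until insulin acts, differed by -0.81 ± 0.23, and Phka2, the liver form of the phosphorylase kinase alpha subunit, by -0.58 ± 0.23. The differences of Tkt, the transketolase (-2.58), Pygl, the liver phosphorylase (-2.63), and Pck1, of gluconeogenesis (-2.02), rested on WT library 2, and were -0.10, -0.17 and -0.01 without it. In the IP against total RNA, lactate and pyruvate handling had 3 of 17 genes higher and 10 lower in WT, and 2 higher and 8 lower in KO. Over all genes, 17.6% were higher and 19.4% lower in WT, and 17.7% higher and 18.8% lower in KO. Mpc1, a subunit of the mitochondrial pyruvate carrier, was lower, at -3.56 ± 0.35 and -4.46 ± 0.40, and Pdha1, of the pyruvate dehydrogenase complex, at -2.28 ± 0.25 and -2.14 ± 0.25. Bsg, the chaperone of the lactate transporters, was higher by 2.13 ± 0.32 and 1.91 ± 0.32.

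The same shares over all genes, 17.6% higher and 19.4% lower in WT and 17.7% higher and 18.8% lower in KO, stand beside the counts of the other lists, several of which lie near them. Glucose uptake regulators had 2 of 18 higher and 6 lower in WT and 0 higher and 6 lower in KO. They include Irs1, an insulin receptor substrate, at -3.42 ± 0.45 and -3.56 ± 0.45. The glycogen enzymes and regulators outside the 33 genes had 4 of 23 higher and 5 lower in WT and 3 higher and 5 lower in KO, with Gsk3a, a kinase that inhibits glycogen synthase, higher by 1.48 ± 0.22 and 1.69 ± 0.22, and Epm2a, the glycogen phosphatase laforin, lower, at -2.32 ± 0.33 and -2.34 ± 0.34. Regulators of glycolytic transcription had 0 of 17 higher and 7 lower in WT and 1 higher and 5 lower in KO. Glycolytic isoenzymes outside the set had 2 of 11 higher and 0 lower in WT and 2 higher and 1 lower in KO. Enzymes of fructose bisphosphate and glycerol phosphate outside the set had 1 of 11 higher and 4 lower in WT and 0 higher and 1 lower in KO. The pentose phosphate pathway had 2 of 8 higher and 0 lower in both genotypes.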

How the data were processed

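RNA from skeletal muscle was sequenced in 10 libraries, and the deposited values are counts of reads per gene. Per the submitters' processing notes, the authors used STAR, HTSeq and mm10 (GRCm38), with no versions. The 5 HTSeq lines for reads given to no gene were left out of library sizes and tests. Symbols came from the GENCODE M21 annotation of GRCm38.

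The members, lists and tests were chosen with earlier results of these data known. All 33 members could be named. Of each of the 7 pathway lists, up to 4 members with the smallest unadjusted p per comparison could be named, and Igf2bp2 was the check of the targeted gene. Further lists held markers of other cell types.

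Genes with low counts were removed by filterByExpr, and the counts were scaled by TMM and tested with edgeR 4.0.16 (quasi-likelihood F test, R 4.3.3). P-values were adjusted by Benjamini and Hochberg over all genes tested, and an adjusted p under 0.05 passed. The genotypes were compared within the 6 total RNA libraries (KO minus WT) and within the 4 IP libraries (WT minus KO). IP against total RNA, and its interaction with genotype, came from 1 fit of all 10 libraries. Differences are given as log2 ± SE. CPM and CPM per kilobase of the longest coding transcript use the TMM factors of the 10-library fit, and 3 counts correspond to 0.203 to 0.310 CPM in total RNA and 0.743 to 3.27 CPM in the IP libraries. Alternatives were RLE scaling, library size alone, no filter, DESeq2 1.42.0, a replicate block and leaving out each library. Leaving out both libraries numbered 3, and 2 other lengths for the isoenzyme shares, were chosen after seeing the data. On simulated counts, 19 of 178 calls were false for KO against WT total RNA, 6 of 92 for WT against KO IP, 10 of 126 and 3 of 124 for IP against total RNA in WT and KO, and 3 of 62 for the interaction. In the same order, 60%, 15%, 28%, 32% and 2% of simulated 2-fold changes were recovered. For 4-fold changes the shares were 99%, 71%, 88%, 89% and 57%. The changes were placed only in genes above a set level, so these shares need not hold for genes with low counts. They were placed in far fewer genes than passed between IP and total RNA, so the shares need not hold at that number of calls. A gene that did not pass may therefore still differ, above all between the IP libraries and in the interaction. No 2 libraries of a group were identical, and all differed by more than sampling noise.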

Additional observations from a re-analysis of the deposited data

How the results depend on the processing

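No test of the 33 genes between genotypes passed under any alternative run. The number of all genes that passed between KO and WT total RNA was 64 without the filter and 5 with DESeq2. Without WT total RNA library 2, the log2 difference of Pck1 was -0.0064 in place of -2.02, and without KO total RNA library 1 as well it was 0.063. Between the WT and KO IP, 1 gene passed with library size alone, 103 without the filter and 57 with DESeq2, and 13 to 146 when each library was left out. The interaction gave 0 genes with library size alone, 263 without the filter and 17 with DESeq2, and 0 to 1 when each library was left out. Of the 32 genes, those higher in the WT IP than in total RNA numbered 5 with library size alone and 0 to 2 when each library was left out, and those lower numbered 6 to 13. In KO, those higher numbered 4 with library size alone and 0 to 1 when each library was left out, and those lower numbered 5 to 16, while the genes that passed in all numbered 2148 to 5706. Gapdh, Gbe1, Fbp2, Gpd2 and Ugp2 were lower in both genotypes in every alternative fit. The causes of these changes were not tested.

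The labels do not say that a number marks a shared animal or day. Deviations of same-numbered WT and KO total RNA libraries correlated at 0.09, -0.11 and -0.30. Those of same-numbered IP and total RNA libraries correlated at 0.11 and 0.09 in WT and 0.13 and 0.15 in KO. Crossing numbers 1 and 2 must give these values with the sign reversed, since each IP group has 2 libraries, so it adds no information. The same-numbered values of IP and total RNA rest on 2 pairs a genotype, so no pairing was assumed. With the number as a replicate block, 28 genes passed between the WT and KO IP and 147 in the interaction, and 3 of the 32 genes were higher in the KO IP. The median of the 32 genes in the interaction was then 0.12.

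The isoenzyme shares in WT total RNA depended little on the length used. Hk2 took 97.8% per exon union length. Pgam2 took 99.98% both without division by length and per unshared stretch. Eno3 took 99.6% without division by length, 99.9% per exon union length and 98.8% per unshared stretch, and Slc2a4 took 98.9%, 98.9% and 99.2%. The exception was Pfkfb1, at 15.4% without division by length.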

Other observations

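In the KO IP, Phka2, the liver form of the phosphorylase kinase alpha subunit, went against its muscle relative Phka1. In WT the ranges of Phka2 overlapped, at 15.5 to 25.9 CPM in total RNA and 21.0 to 27.8 CPM in the IP. Phka2 was higher in the KO IP than in KO total RNA by 1.96 ± 0.26 on the log2 scale (edgeR, Benjamini-Hochberg adjusted p = 0.000103), where Phka1 was lower, at -0.82 ± 0.25. The interaction of Phka2 with genotype was -1.63 ± 0.38 and did not pass (edgeR adjusted p = 0.342). Tbc1d4 had an interaction of -1.33 ± 0.41, which did not pass either.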
